A study of Mus musculus with 11 samples.

Results

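The intervals described here were open in both T lineages of the thymus and had no peak in the bone marrow precursors. Merging every set of peaks from the 9 ATAC-seq libraries that shared 1 bp or more gave 71400 intervals, and the members were selected on peak calls alone. An interval was kept when it held a peak in both libraries of CD4SP thymocytes and in both libraries of NKT thymocytes and in none of the 5 libraries of CLP and ILCP. The rule left 5025 intervals, 7.04% of all, which are called thymic-only below.

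ATAC-seq uses a transposase that cuts and tags accessible DNA, so that a peak marks a stretch of open chromatin. All cells came from C57BL/6 mice with no treatment given, which the study's methods put at 4 to 8 weeks of age. CD4SP thymocytes (2 libraries) are the CD4 single-positive cells of the thymus, and NKT cells (2 libraries) are innate-like T cells that were sorted there with a CD1d tetramer. CLP (3 libraries) are common lymphoid progenitors of the bone marrow, and ILCP (2 libraries) are bone marrow precursors of innate lymphoid cells, sorted as Lin- IL-7Rα+ α4β7+ eGFP+ cells from mice with a GFP and Cre reporter placed in Zbtb16, the gene of the transcription factor PLZF. Each library came from a sorted population, so a weaker peak and a peak present in fewer of the cells cannot be told apart. The tissue and the cell type cannot be told apart either, because both T lineages came from thymus and both precursors from bone marrow.

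T cells arise from lymphoid precursors that settle in the thymus, where Notch signals and the factors TCF-1, GATA3 and Bcl11b shut down other fates and open the genes of the T-cell receptor (TCR) complex. CD4SP and NKT cells both descend from double-positive thymocytes with a rearranged αβ TCR, and both carry CD3, Lck and ZAP-70. Open chromatin far from genes often marks enhancers, which are bound in T cells by factors of the Ets, Runx, TCF/LEF, E protein and GATA families.

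The labels were checked against marker genes. The start sites of Cd3e, Cd3d, Cd3g, Cd4, Lck, Zap70 and Bcl11b were covered by a peak in all 4 thymic libraries, 7 of 7 genes in each, and 2 to 5 of the 7 were covered in a bone marrow library. Of the 5 CLP markers (Flt3, Kit, Il7r, Rag1 and Dntt), all were open in each CLP library, 4 and 2 in the ILCP libraries and 2 or 3 in a thymic library. Flt3 and Rag1 were open in no thymic library, but Il7r and Dntt were open in all 4 and Kit in NKT replicate 2. Of 4 B-cell genes, Ebf1 was open in all 9 libraries and the others, Cd79a and Pax5 among them, in none. Of the NKT markers, Klrb1c was open in none, Il2rb in all 4 thymic libraries and no marrow library, and Tbx21 in NKT replicate 2 alone. Zbtb16, a marker of both NKT and ILCP, was open in both NKT, both ILCP and CLP replicate 2 and in neither CD4SP library. The 5 ILCP markers (Zbtb16, Id2, Pdcd1, Itga4 and Tcf7) did not set ILCP apart, with 4 open in each ILCP and each thymic library and 3, 4 and 3 in CLP, and Tcf7 was open in both CD4SP libraries and in no other. Of the myeloid genes, Itgam was open in all 4 thymic libraries and in no marrow library, Mpo in CLP replicate 2, Csf1r in CLP replicate 3 and Lyz2 in none. The libraries held 19343 to 41535 peaks, the fewest in CLP replicate 1 and the most in CLP replicate 2, and the peak lists do not give the read depth of each library, so that a peak may be absent from a list without the chromatin being closed.

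Sequences are given for the best-ranked thymic-only interval at 5 loci of T-cell factors and receptors, to show what such elements look like. Each is the central 200 bases on the plus strand of mm10, read from GRCm38.p6, with matches to the words of 5 factor families on either strand in capitals. The Runx words were TGTGGT and also its variant TGCGGT. The Ets words were CAGGAA and also its variant CCGGAA. The TCF/LEF words were CTTTGAA and also its variant CTTTGAT. The E protein words were CAGCTG and also its variant CACCTG, and the GATA word was AGATAA. Bcl11b encodes a zinc-finger factor of T-lineage commitment, and its element at chr12:107920916-107921115 lay in an intron 82587 bp from the 5′ end of the gene. Cd28 encodes the main costimulatory receptor, and its element at chr1:60713767-60713966 was intergenic, at -2934 bp from the 5′ end of the annotated gene. The nearest start site of a protein-coding transcript, also of Cd28, was 31969 bp from the interval. The element of Zbtb16 at chr9:48804606-48804805 was intronic, 31517 bp from the 5′ end. Tcf7 encodes TCF-1, with an intronic element at chr11:52275300-52275499, and Ets1 encodes an Ets factor, with an intronic element at chr9:32731644-32731843.
Bcl11b: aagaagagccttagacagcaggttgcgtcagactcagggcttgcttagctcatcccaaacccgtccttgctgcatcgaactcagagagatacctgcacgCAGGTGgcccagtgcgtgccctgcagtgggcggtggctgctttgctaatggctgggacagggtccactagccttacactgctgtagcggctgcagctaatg
Cd28: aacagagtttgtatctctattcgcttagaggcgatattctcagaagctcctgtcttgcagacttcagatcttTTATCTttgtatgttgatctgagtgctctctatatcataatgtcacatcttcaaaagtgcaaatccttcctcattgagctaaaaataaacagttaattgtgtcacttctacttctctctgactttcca
Zbtb16: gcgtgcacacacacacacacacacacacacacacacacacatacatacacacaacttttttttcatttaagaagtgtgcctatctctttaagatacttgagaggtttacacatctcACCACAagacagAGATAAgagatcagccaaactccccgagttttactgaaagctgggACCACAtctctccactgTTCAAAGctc
Tcf7: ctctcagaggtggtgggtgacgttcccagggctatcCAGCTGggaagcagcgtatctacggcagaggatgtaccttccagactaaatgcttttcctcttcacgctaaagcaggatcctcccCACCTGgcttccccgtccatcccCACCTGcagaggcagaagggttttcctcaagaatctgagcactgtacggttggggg
Ets1: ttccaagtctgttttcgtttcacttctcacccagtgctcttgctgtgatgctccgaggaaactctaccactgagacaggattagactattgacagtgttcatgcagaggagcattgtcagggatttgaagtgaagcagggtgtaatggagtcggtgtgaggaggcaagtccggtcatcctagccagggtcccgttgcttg

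The Zbtb16 sequence held 2 Runx words, at bases 117 to 122 and 174 to 179, with a GATA word between them and a TCF/LEF word at bases 191 to 197. This element is not the enhancer that the paper reports as strongly controlling PLZF, which lies elsewhere in the gene. The Tcf7 sequence held 3 E protein words, those of Bcl11b and Cd28 held a lone E protein and a lone GATA word, and that of Ets1 held none of these words. Cd4 and Themis had no thymic-only interval.

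Promoter sequence is given for the 3 listed genes whose start site lay under the best-ranked thymic-only intervals and had an entry in the RefSeq promoter table. Each is the 250 bases before the RefSeq start site in GRCm38.p6 (mm10), written along the minus strand on which all 3 genes lie, with the same words in capitals. Fasl, the ligand that triggers death through Fas, starts just below chr1:161788496-161788745. Ccr4, a chemokine receptor of T cells, starts below chr9:114496545-114496794. Cd3g, the γ chain of CD3, starts below chr9:44980432-44980681.
Fasl: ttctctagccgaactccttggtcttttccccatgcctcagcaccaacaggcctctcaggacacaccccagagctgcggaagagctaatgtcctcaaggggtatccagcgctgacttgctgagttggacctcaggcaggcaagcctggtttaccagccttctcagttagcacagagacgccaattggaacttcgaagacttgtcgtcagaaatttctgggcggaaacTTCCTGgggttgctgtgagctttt
Ccr4: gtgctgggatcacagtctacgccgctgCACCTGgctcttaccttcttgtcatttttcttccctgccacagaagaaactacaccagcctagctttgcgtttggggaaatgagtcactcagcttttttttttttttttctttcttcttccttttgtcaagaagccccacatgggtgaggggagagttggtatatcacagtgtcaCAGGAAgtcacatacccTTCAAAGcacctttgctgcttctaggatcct
Cd3g: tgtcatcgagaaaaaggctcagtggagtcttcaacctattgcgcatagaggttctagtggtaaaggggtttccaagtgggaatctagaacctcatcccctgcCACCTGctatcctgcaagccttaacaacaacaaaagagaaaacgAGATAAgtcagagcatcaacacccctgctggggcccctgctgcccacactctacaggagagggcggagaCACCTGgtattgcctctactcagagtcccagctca

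The Fasl promoter held an Ets word at bases 227 to 232. That of Ccr4 held a CACCTG word at bases 28 to 33 and an Ets and a TCF/LEF word close together, at bases 203 to 208 and 220 to 226, and that of Cd3g held 2 CACCTG words and a GATA word. RefSeq promoters, here 250 bases before and 50 after each start site, numbered 320 under thymic-only intervals and 32851 in all. An Ets word stood in 57.8% of those under thymic-only intervals (Wilson 95% interval 52.3 to 63.1) and in 41.4% of all, a Runx word in 26.6% (22 to 31.7) and 22.4%, and a TCF/LEF word in 10.3% (7.44 to 14.1) and 8.65%. All promoters were counted whether or not a peak covered them. Among open intervals within 1 kb of a start site, words were also counted in the central 200 bp. An Ets word stood in 45.3% of the thymic-only ones and 31.3% of all, a Runx word in 18.5% and 17.1%, and a TCF/LEF word in 8.86% and 3.96%.

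Most thymic-only intervals lay away from promoters. Of the 5025, 2299 (45.8%) lay in introns, 2119 (42.2%) between genes, 212 (4.22%) in exons and 395 (7.86%) within 1 kb of the start site of a protein-coding gene. Of all merged intervals, 20.7% were within 1 kb of a start site. The remaining 19196 intervals that were open in all 4 thymic libraries, which also had a peak in at least 1 marrow library, were at a start site in 48.2%, and the 9464 open in all 9 libraries in 65.3%. Intervals open in NKT alone and in CD4SP alone were at a start site even less often, 3.85% and 3.44%, whereas those open in CLP and ILCP alone reached 17.0%. The share at start sites depended on how deep into the peak lists the rule reached. It was 18% when peaks in the lower-scoring 50% of a library were dropped before merging, against 33.3% of all such intervals.

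**Figure D1:**
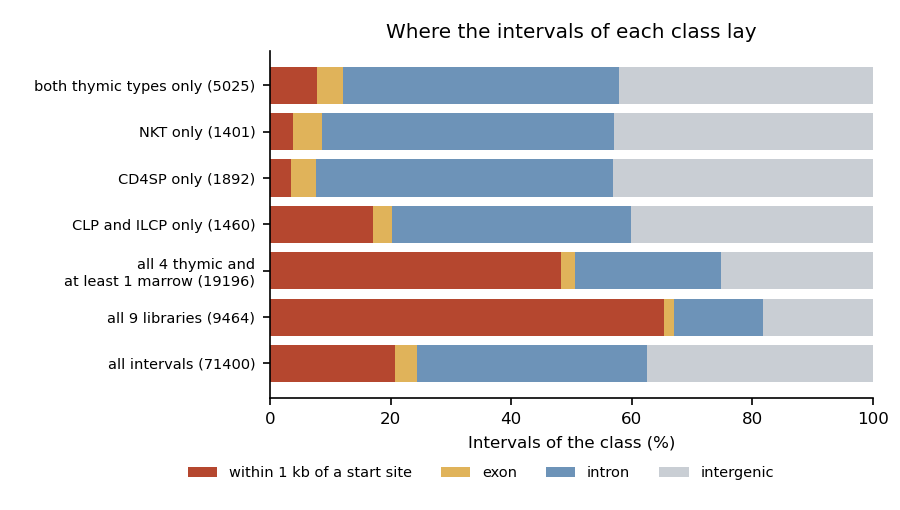
Share of intervals (%, x axis) of each class (y axis, number of intervals in brackets) that lay within 1 kb of a protein-coding start site, in an exon, in an intron or between genes. Thymic-only intervals, in the top bar, were 7.86% start sites, and the intervals open in all 9 libraries 65.3%.

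The median thymic-only interval was 1061 bp wide and 20922 bp from the nearest start site, against 1015 bp and 16530 bp over all intervals. More than 100 kb away were 13.5%, against 14.2% of all intervals. Among intervals over 1 kb from a start site the direction turned, with a median distance of 23708 bp against 26724 bp. Intervals open in all 4 thymic libraries and in marrow were wider, with a median of 1505 bp. The median distance to the nearest interval with a marrow peak was 7831 bp, and 559 thymic-only intervals (11.1%) had one within 1 kb. Intervals open in NKT alone (8312 bp and 11.2%) and in CD4SP alone (7786 bp and 11%) were much the same. The share of intervals that met the rule was 6.11% to 8.46% on the autosomes, highest on chromosome 9, and 3.06% on the X chromosome, where 49 of 1600 intervals did.

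Peak scores are comparable only within a library, so each peak was given a rank percentile, with 0 for the highest-scoring peak of its library and 100 for the lowest. The median percentile of thymic-only intervals was 54.8 in CD4SP replicate 1, 49.9 in CD4SP replicate 2, 58.7 in NKT replicate 1 and 55 in NKT replicate 2. The other intervals open in all 4 thymic libraries had medians of 32.2, 27.4, 30.9 and 26.4 in the same order, so that thymic-only intervals were ranked lower in each of the 4 libraries. Between 0.358% and 2.15% of them were among the top 10% of a library's peaks, against 13.8% to 16% of all intervals open in the 4 libraries. The lowest of the 4 scores was under 130 in 523 thymic-only intervals (10.4%), close to the lowest score of 120.01 that a thymic-only interval held.

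**Figure D2:**
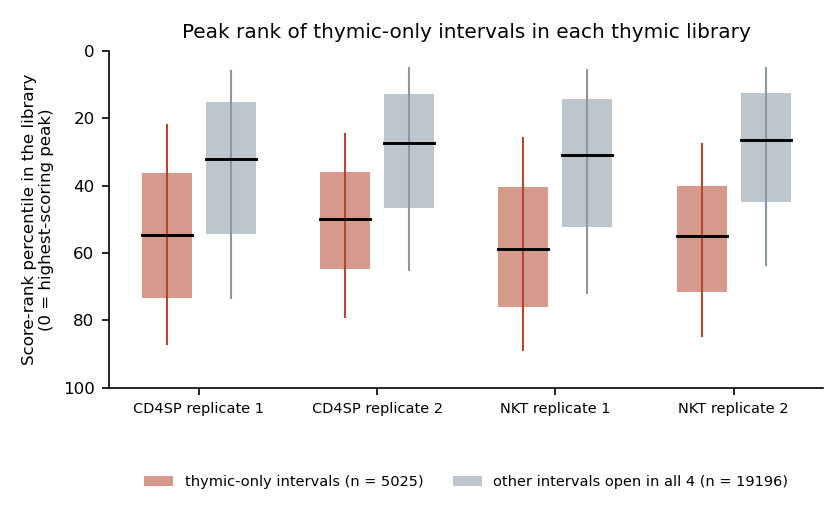
Score-rank percentile (y axis, 0 at the top for the highest-scoring peak) in the 4 thymic libraries (x axis), for thymic-only intervals and for the other intervals open in all 4. Lines run from the 10th to the 90th percentile of intervals, boxes span the middle 50% and black bars are medians, which were 49.9 to 58.7 for thymic-only intervals and 26.4 to 32.2 for the others.

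The question of how alike the NKT and CD4SP cells were at these elements was asked of the ranks. The mean of the library medians was 56.9 ± 2.60 (SD, n = 2) in NKT and 52.3 ± 3.41 (SD, n = 2) in CD4SP, a difference of 4.52 percentile points toward lower ranks in NKT. It was 2.11 without CD4SP replicate 2, 6.93 without CD4SP replicate 1 and 2.68 without NKT replicate 1. The lower of the NKT medians, 55.03, and the higher of the CD4SP medians, 54.76, nearly met. An exact two-sided permutation test gave p = 0.333, which is the smallest that 2 libraries against 2 allow. Over all 24221 intervals open in the 4 libraries the difference was -0.32 (34.5 ± 3.17 in NKT, 34.8 ± 3.17 in CD4SP, SD, n = 2 each, exact permutation p = 0.667).

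Both CD4SP libraries ranked an interval above both NKT libraries in 1641 thymic-only intervals (32.7%), against 20.6% of all intervals open in the 4 libraries. The reverse held for 814 (16.2%), against 19.9%. Across thymic-only intervals the Spearman correlation of ranks was 0.757 between the CD4SP libraries, 0.675 between the NKT libraries and 0.436 to 0.619 between a CD4SP and an NKT library. Over all intervals open in the 4 libraries it was 0.879, 0.849 and 0.766 to 0.876 in the same order. There, CD4SP replicate 2 and NKT replicate 2 reached 0.876, above the value between the NKT libraries. These correlations are across intervals, which are not replicates.

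The intervals ranked most differently between the types were named by the size of the difference. Nearest to Irak3, an inhibitor of Toll-like receptor signalling, an intronic interval at chr10:120196804-120198066 had percentiles of 98.6 and 83.3 in CD4SP and 9.88 and 17.0 in NKT. An intronic interval of Tnip3, an inhibitor of NF-κB, had 95.5 and 92.6 in CD4SP and 27.0 and 33.7 in NKT. Both were near the bottom of the CD4SP lists and well up the NKT lists. The next were nearest to Gm11114, Elfn1 and Slc22a3, with differences (NKT minus CD4SP) of -61.2, -60.8 and -56.5 points. In the other direction, an intergenic interval at chr10:122566592-122567844 nearest to Ppm1h had 10.6 and 23.2 in CD4SP and 75.2 and 99.9 in NKT. It was followed by intervals nearest to Msl2, Rngtt, Sall3 and Kcna3, a potassium channel of T cells, with differences of 67.9, 67.4, 66.4 and 64.0 points.

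How far the class held in a library that did not choose it was read by applying the rule to the other 8 libraries. Of the intervals chosen in this way, 84.4% were open in CD4SP replicate 1 when it was held out, 95.5% in CD4SP replicate 2, 82.7% in NKT replicate 1 and 89.4% in NKT replicate 2. The same libraries held peaks in 44.5% to 51.6% of all intervals. Of intervals open in the other 3 thymic libraries, whatever their state in marrow, they held 92%, 97.5%, 92.5% and 96.1% in the same order, each above the value for the thymic-only intervals. Of the intervals chosen without a marrow library, 0.179% were open in CLP replicate 1, 9.35% in CLP replicate 2, 7.08% in CLP replicate 3, 5.39% in ILCP replicate 1 and 4.32% in ILCP replicate 2, against 25.9% to 55.8% of all intervals. CLP replicate 1, with the fewest peaks, removed 9 intervals, and without it the rule gave 5034.

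Just outside the rule were 2824 intervals with no marrow peak and a peak in 3 of the 4 thymic libraries, of which 1051 lacked only NKT replicate 1, 935 only CD4SP replicate 1, 600 only NKT replicate 2 and 238 only CD4SP replicate 2. Their peaks had median percentiles of 75.2 to 78.4. A further 1390 had all 4 thymic peaks and a peak in a lone marrow library, 502 of them in CLP replicate 2 and 369 in CLP replicate 3. The marrow peaks of these intervals were weak, with median percentiles of 84.7 to 92.4 in their own libraries. Just inside the rule, the mean percentile of the 5025 intervals ran from 2.5 to 99.0, with a median of 56.5.

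Of 21938 protein-coding genes, 4097 (18.7%) had at least 1 thymic-only interval inside the gene or up to 20 kb from either end, 1207 had at least 2 and 136 at least 4. Genes with such an interval were longer, with a median of 31624 bp against 17425 bp. The start site itself was open in at least 1 marrow library for 71.0% of the genes with a thymic-only interval, and for 56.2% of all genes. Most of these genes thus had an accessible promoter in a marrow library and a further element that was called only in the thymus. A thymic-only interval covered a start site of 292 genes, and for 238 of these no start site had a peak in a marrow library. Genes of ribosomal proteins such as Rpl6, Rpl8 and Rps28, named after the values were seen, were among the 238. A missing marrow peak is therefore not read as a promoter closed in marrow, which was not tested.

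Genes of T-cell function were described with 12 lists, 9 of T-lineage and innate lymphoid genes and 3 of other cells. In the 9 lists, 78 of 122 genes (63.9%) had a thymic-only interval, against the 18.7% of all genes given above. Length and the number of open intervals differ between the lists, so the share of intervals is given as well. Of all pairs of a protein-coding gene and an interval within 20 kb of it, 6.66% were thymic-only. That share was 16.1% for TCR and CD3 chains, 9.05% for proximal TCR signalling, 16.8% for coreceptors and costimulation, 12% for T-lineage transcription factors, 11.6% for cytokine receptors, 13.1% for egress and homing, 15.7% for survival and death and 9.93% for innate lymphoid precursor genes. It was 5.81% for factors induced by the TCR, 1.85% for B-lineage, 7.27% for progenitor and myeloid and 6.00% for housekeeping genes. An interval near several genes of a list counts for each of them. The 14 thymic-only pairs of TCR and CD3 chains were 10 intervals, because neighbouring Cd3 genes shared some.

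**Figure D3:**
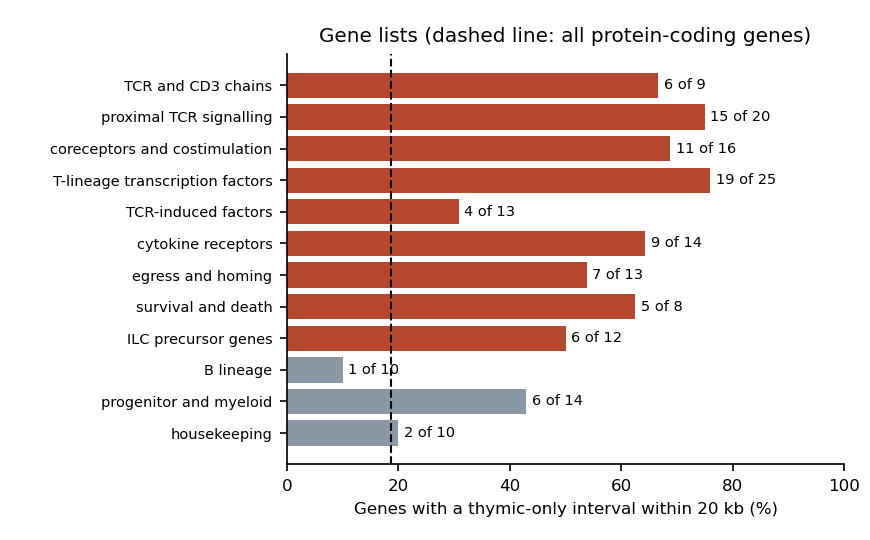
Share of the genes of each list (%, x axis) with at least 1 thymic-only interval within the gene extended by 20 kb, with the count beside each bar; red bars are T-lineage and innate lymphoid lists and grey bars lists of other cells. The dashed line is the 18.7% of all protein-coding genes, and the bars run from 1 of 10 B-lineage genes to 19 of 25 T-lineage transcription factors.

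Among the 9 genes of TCR and CD3 chains, 6 had a thymic-only interval. CD3 chains carry the signal of the TCR into the cell, and their genes Cd3e, Cd3d and Cd3g lie side by side on chromosome 9. The start site of Cd3e lay under the interval at chr9:45008950-45011082, with percentiles of 36.3 and 19.2 in CD4SP and 64.4 and 38.3 in NKT. That of Cd3g lay under chr9:44979840-44980963, with 35.1 and 26.0 in CD4SP and 37.2 and 28.3 in NKT, so that the groups overlapped. A further interval at chr9:44981118-44983044 covered a start site of Cd3d, of which another annotated start was open in all 5 marrow libraries. Cd247, which encodes the ζ chain, had 3 intronic intervals, Trat1, an adaptor of the TCR, had 2, and Trac, the α chain constant gene, had 1 at chr14:54221908-54223309 with percentiles of 28.9 to 52.7. Trbc1, Trbc2 and Ptcra, the partner of the β chain before the α chain is made, had none.

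In proximal TCR signalling 15 of 20 genes had a thymic-only interval, and for 6 of them it covered a start site. With only the higher-scoring 50% of the peaks of each library, 7 of the 20 had one. In that setting the count over all protein-coding genes fell from 4097 to 2794. Lck, the kinase that phosphorylates CD3, had its interval at chr4:129573120-129574296 with percentiles of 55.9 and 36.2 in CD4SP and 43.1 and 56.3 in NKT, although another of its start sites was open in every marrow library. Zap70, the kinase that binds phosphorylated CD3, had percentiles of 51.7 and 25.7 in CD4SP and 31.9 and 29.8 in NKT at a start site, and another of its start sites was open in 3 of the 5 marrow libraries. Both groups overlapped at both kinases. Sh2d1a, which encodes the adaptor SAP needed for NKT development, had 17.5 and 20.8 in CD4SP and 28.9 and 33.7 in NKT at its start site, which did not overlap. Start sites of Ubash3a, a negative regulator of TCR signals, and Sit1, an inhibitory adaptor, were also covered. Lat, Txk, Themis and Ptprc had no thymic-only interval within 20 kb, though 4 lay nearer to the start site of Ptprc than to any other.

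Coreceptors and costimulatory receptors had a thymic-only interval at 11 of 16 genes. None lay within 20 kb of Cd4, Cd8a or Cd8b1, whose CD4 and CD8 proteins separate the 2 classes of conventional T cells. Cd2, an adhesion receptor, had an intronic interval with percentiles of 15.1 and 5.20 in CD4SP and 21.3 and 21.1 in NKT. The start site of Slamf1, a receptor that signals through SAP, had 30.2 and 36.3 in CD4SP and 57.9 and 64.2 in NKT. Ctla4, an inhibitory receptor, had 24.8 and 31.4 in CD4SP and 43.2 and 55.3 in NKT at its start site. Cd28 had 31.5 and 23.3 in CD4SP and 65.9 and 48.9 in NKT. At these 4 genes both CD4SP libraries ranked above both NKT libraries. The interval near Cd5, an inhibitory receptor, went the other way, with 59.5 and 45.7 in CD4SP and 33.7 and 24.6 in NKT. Over the 23 intervals of the list, both CD4SP libraries ranked higher in 14 (60.9%), both NKT libraries in 1 (4.35%), the one near Cd5, and the groups overlapped in 8. Of all thymic-only intervals the 2 shares were 32.7% and 16.2%. The list was singled out after the values were seen, as the one of 12 with the highest CD4SP share. Survival and death (53.8% and 7.69%) and cytokine receptors (50% and 14.3%) leaned the same way. T-lineage transcription factors (24% and 22%) and innate lymphoid precursor genes (21.4% and 21.4%) were near balance. Cd226, an activating receptor on chromosome 18, had 4 intervals.

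Among T-lineage transcription factors 19 of 25 genes had one, and 12 with equal numbers of peaks from each library. Bcl11b had 5, all in introns, and that at chr12:107919897-107922134 ranked high in every library, with percentiles of 9.85, 10.5, 11.7 and 12.3. Nfatc2, a factor activated by calcium signals, had an intronic interval with 12.7 and 16.2 in CD4SP and 7.46 and 10.1 in NKT, and Tox, needed for the CD4 lineage and for innate lymphoid cells, had one with 11.9 and 18.8 in CD4SP and 14.7 and 23.7 in NKT. Foxp1, which keeps T cells quiescent, had 8 intervals, Nfatc1 had 5, Ikzf3 had 4 and Tox, Lef1, Ets1, Bach2 and Nfatc2 had 3 each. Gata3 and Runx3 had none within 20 kb, but 7 thymic-only intervals had the start site of Gata3 as the nearest. The thymic-only interval in Zbtb16, chr9:48804193-48805217, had percentiles of 73.1 and 74.3 in CD4SP and 66.6 and 62.6 in NKT. It was among the weaker ones, and both NKT libraries ranked it above both CD4SP libraries.

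**Figure D4:**
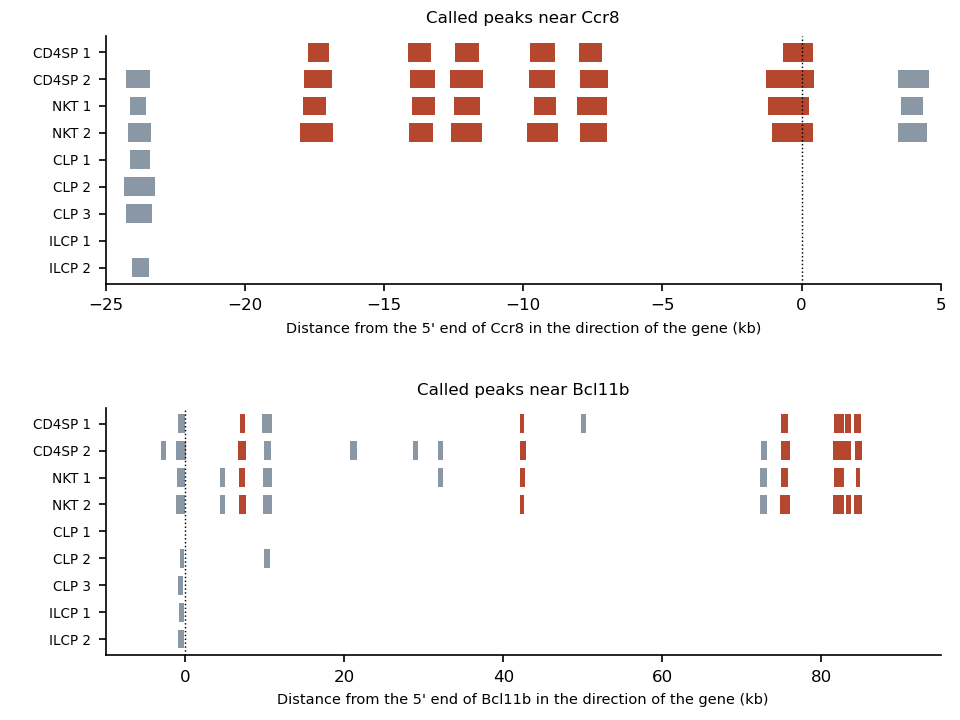
Called peaks in the 9 libraries (rows) by distance from the 5′ end of the gene (x axis, kb), for Ccr8 and Bcl11b, in red where they belong to a thymic-only interval and in grey otherwise. Ccr8 had 6 thymic-only intervals and Bcl11b had 5, and the marrow rows near Bcl11b hold peaks at the 5′ end in CLP replicates 2 and 3 and both ILCP libraries, and a further one in CLP replicate 2.

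Of the cytokine receptor genes 9 of 14 had a thymic-only interval. At the start site of Il2rb, the β chain shared by the IL-2 and IL-15 receptors, percentiles were 65.4 and 45.7 in CD4SP and 37.4 and 18.9 in NKT, higher in rank in both NKT libraries. Another interval beyond the 3′ end of Il2rb went the other way, with 32.4 and 24.7 in CD4SP and 59.6 and 45.9 in NKT. Il2ra, the high-affinity chain, had 47.2 and 38.9 in CD4SP and 59.7 and 55 in NKT at its start site. Tgfbr2, a receptor of TGF-β, had 3 within 20 kb and was the nearest gene of 11. Il7r and Il2rg had none within 20 kb.

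In the egress and homing list 7 of 13 genes had one, and 4 with an extension of 5 kb. In the survival and death list 5 of 8 did, and 2 with equal numbers of peaks. Ccr8, a chemokine receptor, had 6 intervals with centres at -17425 to -419 bp from its 5′ end, the last of which covered its start site. Fasl had 4, of which that at the start site, chr1:161787830-161789108, ranked high, with percentiles of 4.09 and 9.91 in CD4SP and 11.4 and 13 in NKT. Bcl2, which protects from death, had 3, the best with percentiles of 16 and 20.2 in CD4SP and 9.71 and 24.1 in NKT. S1pr1 and Klf2, which govern the exit of T cells from the thymus, and Itgae, Itgb7 and Cd69 had none. Of 13 factors induced by the TCR, 4 (30.8%) had one (Egr3, Nr4a1, Irf4 and Nfkb1), against 18.7% of all protein-coding genes. This count was 2 with an extension of 5 kb, 7 by nearest start site and 9 with a peak in any replicate of each thymic type. The 18.7% is not the background of these 3 counts. Of all 21938 protein-coding genes, 2716 had a thymic-only interval with the 5 kb extension and 7335 with any replicate. Start sites of 10 of the 13 were open in all 9 libraries, as were those of 30.9% of all protein-coding genes.

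Among innate lymphoid precursor genes 6 of 12 had a thymic-only interval (3 with the higher-scoring peaks or equal numbers), which included Rora with 5, Tox with 3, Tcf7 with 2 and Zbtb16 with 1. Id2, which opposes E proteins, had none within 20 kb but was the nearest gene of 8. In the lists of other cells, Cd79b alone of 10 B-lineage genes had one, at -15144 bp from its 5′ end. The B-lineage count was 0 with equal numbers or an extension of 5 kb, and 3 with a peak in any replicate. Of 14 progenitor and myeloid genes 6 had a thymic-only interval (2 with the higher-scoring peaks and 1 with equal numbers), with 3 at Irf8. Of 10 housekeeping genes Actb and Tbp did (1 gene with an extension of 5 kb and 4 with any replicate). Over the 169 thymic-only intervals of the listed genes, both CD4SP libraries ranked higher in 60 (35.5%) and both NKT libraries in 28 (16.6%), close to the 32.7% and 16.2% of all thymic-only intervals, and the groups overlapped in 81.

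The genes with the most thymic-only intervals were long or crowded. Gm20388, an annotated model of 4434882 bp, had 34 of its 252 intervals, and the models Gm20696, Pakap and Gm37240 had 10, 9 and 8. Sox5 had 10 over 953553 bp, Fntb had 9, and Ubac2, Cx3cr1, Msra and Foxp1 had 8 each. Crtc3, Disp1, Ubash3b, Tgfbr3 and Prkch, which encodes a protein kinase C of T cells, had 7. Fntb held 4.60 and Crtc3 4.92 per 100 kb of extended gene, and Gm20388 held 0.76.

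When thymic-only intervals within 12.5 kb of each other were joined, 3736 stood alone and 15 groups held at least 4. The median gap between neighbouring ones was 108022 bp. No other class was grouped in this way, so the counts are not read as a trait of thymic-only intervals. The largest held 6 upstream of Ccr8 and reached from chr9:120074106 to 120092557, where all 6 merged intervals of the stretch were thymic-only. Groups of 5 lay next to Znrf1, Disp1, Akap2 and Eomes, which encodes a T-box factor of cytotoxic and memory T cells. That next to Eomes reached from chr9:118387265 to 118406060, with 5 of its 6 intervals thymic-only. Groups of 4 included those at Ltb and Lta, which encode lymphotoxins, at Cd5 and Cd6, and at Fasl.

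The best-ranked thymic-only interval lay in an intron at chr15:12894963-12896519, 70100 bp from the start site of Drosha, the nuclear enzyme of miRNA processing. Its percentiles were 1.67 and 3.95 in CD4SP and 0.565 and 3.84 in NKT. The next, between genes at chr1:183987194-183988566 and nearest to Dusp10, a phosphatase of stress kinases, had 2.82 and 4.10 in CD4SP and 1.31 and 6.24 in NKT. Those nearest to Gabrr2, C1ql3, Tdrd3, Tshr, Frs2, Zbtb38, Cmya5 and Ets2 followed, with mean percentiles of 3.97 to 7.01. Of these 10, that at Gabrr2 alone lay within 1 kb of a start site.

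Motif words were counted in the central 200 bp of the 4630 thymic-only intervals that lay over 1 kb from any start site, against all 56614 such distal intervals. A TCF/LEF word stood in 18.6% (Wilson 95% interval 17.5 to 19.7) and in 11.9% of all. An Ets word stood in 46.0% (44.6 to 47.4), against 37.4%. A Runx word stood in 24.9% (23.7 to 26.2), against 31.5%, so it was less frequent than in all distal intervals. These intervals cover counting error only, and a word is a match of letters and not a bound site.

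The direction was the same for all 3 words in each of 5 bins of GC content. For Runx the share was 20% to 27.1% in thymic-only intervals and 27.7% to 33.7% in all, for Ets 38.8% to 50.1% and 27.5% to 41.9%, and for TCF/LEF 6.68% to 25.3% and 4.61% to 17.4%. The median GC content of the central 200 bp was 48.0% in both sets.

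Distal intervals of the other classes showed where thymic-only intervals stood. A Runx word was held by 47.8% (45 to 50.6) of those open in CLP and ILCP alone, 30.1% (27.7 to 32.6) in NKT alone and 22.2% (20.4 to 24.2) in CD4SP alone. TCF/LEF words were the rarest in the CLP and ILCP class, at 6.85% (5.56 to 8.41), and stood in 20.9% (18.8 to 23.1) of the NKT class and 15.5% (13.9 to 17.2) of the CD4SP class. The Ets share was 34.7%, 38.5% and 45% in the same order. Both an Ets and a TCF/LEF word stood in 8.14% of distal thymic-only intervals and in 4.12% of all distal intervals.

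**Figure D5:**
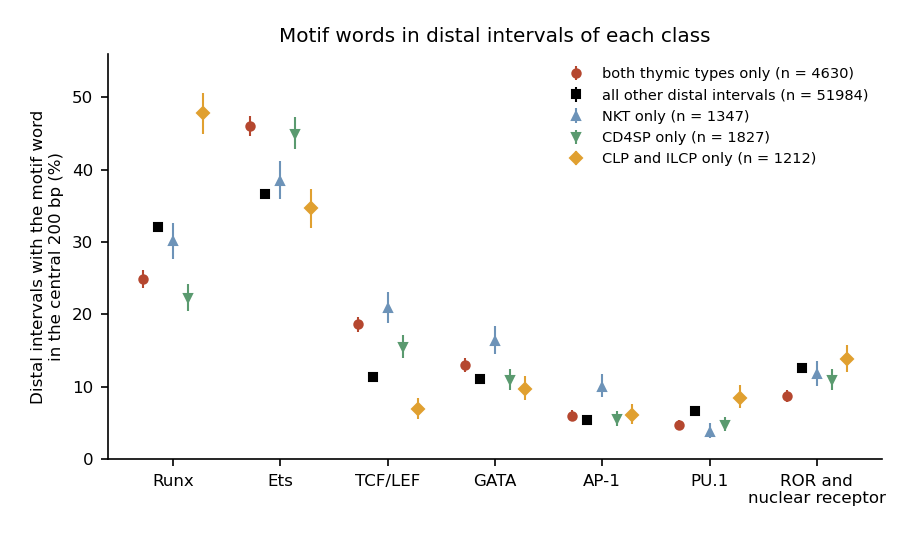
Share of distal intervals with a motif word in the central 200 bp (%, y axis) for 7 motifs (x axis) in 5 classes of intervals; bars are Wilson 95% intervals for counting error. Thymic-only intervals had the word for TCF/LEF in 18.6% and the word for Runx in 24.9%, against 6.85% and 47.8% in intervals open in CLP and ILCP alone.

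GATA words stood in 13% (12 to 14) of distal thymic-only intervals and in 11.2% of all. The words of PU.1 (GAGGAAGT), a myeloid and B-cell factor, stood in 4.69% (4.11 to 5.33) and 6.52%, and the AGGTCA word of ROR and other nuclear receptors in 8.70% (7.93 to 9.55) and 12.3%. The E protein word CAGCTG stood in 12.5% and 14.8%, and the form CACCTG in 17.5% and 15.9%. The Egr word GCGTGGG was rare, at 2.31% (1.92 to 2.78) against 1.43%, which was the highest ratio of the 18 motifs, 1.62, with TCF/LEF next at 1.56. The other 9 motifs differed by -0.816 to 0.643 percentage points. These were AP-1 (TGACTCA), NFAT (GGAAAA), CTCF (AGGGGGC or AGGTGGC), C/EBP (TTGCNNAA), STAT (TTCNNNGAA), the GC box (GGGCGG), MEIS (TGACAG), EBF and IRF. The Ets, PU.1 and NFAT words share the letters GGAA, and the AGGTGGC form of CTCF can overlap an E protein word.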

How the data were processed

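ATAC-seq libraries of sorted CD4SP, NKT, CLP and ILCP cells were sequenced by the authors as reads of 50 bp and aligned to mm10 with bowtie, allowing 2 mismatches. Peaks were called with MACS in each library, and the deposited lists hold the position and a score for each peak, with a lowest score of 120.01 among members. The submitters' notes also name Picard and HOMER. The MACS settings, duplicate removal and any shift of read ends are not given in the sources used here. The methods state a range of reads for all ATAC-seq libraries but none for each library, so no counting interval belongs to a peak, and scores were used only as ranks within a library. The methods describe the libraries as biological replicates.

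Peaks overlapping by at least 1 bp were merged, and a library with a peak in an interval counted it as open. Starts were converted to positions counted from 1. The score-rank percentile is 100 times the average rank of a peak's score over the library's number of peaks, for the best peak of the interval. Genes came from GENCODE M21 and sequence from GRCm38.p6. Start sites of protein-coding transcripts, genes extended by 20 kb and 18 motifs on both strands were used. Differences between cell types were tested by exact two-sided permutation of libraries, and shares carry Wilson 95% intervals, which cover counting error only. Python 3.11.15, numpy 2.4.6, pandas 2.3.3, scipy 1.17.1, statsmodels 0.14.6, pysam 0.24.0 and matplotlib 3.10.9 were used, and the merging, ranking and motif search were tested on simulated data.

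The members, gene lists and motifs were chosen with earlier results of these data known. Named were the genes of the lists, the 15 genes with the most members, the 10 best-ranked members, the 5 most different between types in each direction, and members at Zbtb16. Sequences of the central 200 bp were to be shown for 10 loci. Those of Cd3e, Lck and Zap70 overlapped an annotated UTR and are not shown. Some items are not reported here. The 2 Runx1 ChIP libraries were not analysed here.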

Additional observations from a re-analysis of the deposited data

How the results depend on the processing

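The number of thymic-only intervals depended on how many peaks entered and on the rule for replicates. It was 2645 when peaks in the lower-scoring 50% of a library were dropped, 2373 with the 19343 best peaks of each library, and 9942 with a peak in any replicate of each thymic type. In the same 3 settings the share within 1 kb of a start site was 18%, 19.0% and 9.81%, against 33.3% and 29.8% of all intervals in the first pair, and the genes with a member numbered 2794, 2580 and 7335. The share at start sites was 12.6% with a limit of 2.5 kb and 16.5% with start sites of all annotated genes. Genes with a member numbered 2716 with an extension of 5 kb and 2164 with none. A Runx word was held by 24.4% of members, 26.3% with the higher-scoring peaks, 66.7% over the whole interval and 21.9% with TGTGGT alone. In distal members the Runx, Ets and TCF/LEF shares were 28.3%, 45.2% and 19.5% with the higher-scoring peaks (33.3%, 38.6% and 12.6% of all distal intervals) and 26.5%, 44.3% and 19.6% with equal numbers (34.6%, 37.8% and 13.1%), so each kept its direction there. Leaving out 1 library at a time gave 5034 to 6079 members, 7.38% to 9.54% at start sites, 4099 to 4909 genes and 23.9% to 24.7% with a Runx word. Without CLP replicate 2 the share at start sites was 9.54%, and without CLP replicate 3 it was 9.30%. Of 192 list counts under other settings, 173 were within 1.5 times those given and 19 were not. With the higher-scoring peaks these were proximal TCR signalling (7 genes), innate lymphoid precursor (3) and progenitor and myeloid genes (2). With equal numbers they were T-lineage transcription factors (12), survival and death (2), innate lymphoid precursor (3), B-lineage (0) and progenitor and myeloid genes (1). With a peak in any replicate they were factors induced by the TCR (9), B-lineage (3) and housekeeping genes (4). With an extension of 5 kb they were factors induced by the TCR (2), egress and homing (4), B-lineage (0) and housekeeping genes (1), and by nearest start site factors induced by the TCR (7) and housekeeping genes (1). The B-lineage count was 2 without CD4SP replicate 1 and 2 without NKT replicate 1.

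The NKT minus CD4SP difference was 4.60 with the longest peak of each interval and 4.35 with percentiles among intervals open in all 4 thymic libraries, and 2.11 to 6.93 without 1 library. Replicate numbers are shared between the cell types, but nothing says that they pair libraries. With the replicate block the difference was 4.52 (exact p = 0.5, the smallest possible). The differences between replicates 1 and 2 correlated between NKT and CD4SP over members (Pearson r = 0.422 across intervals), and same-numbered libraries of different types had rank correlations of 0.579 and 0.619 against 0.436 and 0.525 for the others.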

Other observations

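Some words differed with the rank of the thymic-only intervals. A CTCF word stood in 7.64% of the 1257 best-ranked and in 17.5% of the 1256 lowest-ranked, and a TCF/LEF word in 21.2% and 15.4%. Others hardly changed, such as Runx (24.5% and 24.1%) and NFAT (14.8% and 14.5%). The median width fell from 1246 to 925 bp between the same sets. In the 814 intervals that both NKT libraries ranked above both CD4SP libraries, a Runx word stood in 27% against 21.9% of the 1641 ranked the other way and 24.4% of all thymic-only intervals. In the same order, a TCF/LEF word stood in 22.1%, 18.3% and 17.8%, a GATA word in 15.8%, 12.9% and 12.7%, an AP-1 word in 8.48%, 4.33% and 5.69%, an Egr word in 3.19%, 1.4% and 2.43%, and the E protein word CACCTG in 13.9%, 18.4% and 17.5%. These are descriptions without a test. The NKT-only distal intervals held an AP-1 word in 10% (Wilson 95% interval 8.53 to 11.7). The share was 6% in distal thymic-only intervals, 5.47% in CD4SP-only distal intervals and 5.47% in all distal intervals. The X chromosome held 0.975% of thymic-only intervals and 0.928% of those open in NKT alone, against 1.80% in CD4SP alone, 2.26% in CLP and ILCP alone and 2.24% of all intervals.

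Several start sites covered by thymic-only intervals belong to genes outside the lists, named here after their values were seen. Trak1, which links mitochondria to motors, ranked best, with percentiles of 8.77 and 4.27 in CD4SP and 10.6 and 5.97 in NKT. Lta had 25.1 and 17.0 in CD4SP and 43.1 and 25.3 in NKT, and Lime1 and Grap, adaptors of lymphocyte signalling, had mean percentiles of 29.8 and 28.6.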
